A study of Mus musculus with 57 samples.

Results

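Of the 24941 gene symbols in the deposited count table, 29 cholesterol synthesis and sterol sensing genes are described here. They were chosen by symbol from knowledge of the pathway, with earlier results of these data known but without a threshold on the measured values. All 29 were found. Each gene is represented by its RefSeq transcript with the highest total count. 7 members act from acetyl-CoA to farnesyl diphosphate (Acat2, Hmgcs1, Mvk, Pmvk, Mvd, Idi1 and Fdps) and 3 form squalene and lanosterol (Fdft1, Sqle and Lss). 9 turn lanosterol into cholesterol (Cyp51, Tm7sf2, Lbr, Msmo1, Nsdhl, Hsd17b7, Ebp, Sc5d and Dhcr7), and 6 belong to the sterol sensing machinery (Srebf2, Scap, Insig1, Insig2, Mbtps1 and Mbtps2). The last 4 transport, esterify or oxidise cholesterol (Stard4, Soat1, Soat2 and Ch25h). No receptor for lipoprotein uptake is among the members.

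RNA sequencing covered 57 mouse libraries in 4 sets, most of them macrophages sorted from livers with nonalcoholic steatohepatitis (NASH), a fatty liver disease with inflammation. The population set, from C57BL/6J mice, held 2 libraries of each of 6 groups. These were Kupffer cells (the resident liver macrophages, F4/80-high and Tim4-positive) from mice on the Control diet and from mice on the NASH diet, and 4 further NASH diet populations. The 4 were recruited macrophages of the Kupffer niche (F4/80-high, Tim4-negative), Ly6C-low and Ly6C-high recruited macrophages (CD11b-high), and Ly6C-high blood monocytes. The labels give no number of diet weeks for this set. The time course, also from C57BL/6J mice, held Kupffer cells of Control diet mice at week 0 (n = 3) and of mice fed the NASH diet for 1 (n = 2), 4 (n = 2), 10 (n = 3), 20 (n = 3) or 30 (n = 4) weeks. The LXR set held recruited macrophages of the Kupffer niche after 20 weeks of NASH diet. All 6 of its libraries carry floxed alleles of the LXR genes Nr1h3 (alpha) and Nr1h2 (beta), in a strain labelled LXRaLBRb flox and titled LXRaLXRb. They are labelled positive (n = 3) or negative (n = 3) for Clec4f-cre, a recombinase driven by a Kupffer cell promoter. Whole liver came from mice on the choline-deficient CDAHFD diet, also named a NASH diet, for 4 weeks, labelled positive (n = 12) or negative (n = 10) for Clec4f-cre DTR, a diphtheria toxin receptor. The labels state no toxin treatment, and they give no ages for the groups.

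Cholesterol is built from acetyl-CoA through mevalonate, farnesyl diphosphate, squalene and lanosterol. When sterols run low in the endoplasmic reticulum, SCAP escorts the transcription factor SREBP2, the product of Srebf2, to the Golgi, where the proteases encoded by Mbtps1 and Mbtps2 release its active part. That part binds sterol regulatory elements in the promoters of synthesis genes, whereas the INSIG proteins hold SCAP back when sterols are plentiful. Macrophages that take up much cholesterol store it as esters made by SOAT1, export it through transporters induced by the oxysterol receptors LXR alpha and beta, and can make the oxysterol 25-hydroxycholesterol with the enzyme encoded by Ch25h.

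The promoters of 4 members on which the results turn are printed here from RefSeq (GRCm38.p6), each as the 250 bases before the transcription start, 5′ to 3′ on the gene's strand. Hmgcs1 (gene at chr13:119690351-119708260, window chr13:119690101-119690350, plus strand) and Cyp51 (chr5:4080674-4104697, window chr5:4104698-4104947, minus strand) are shown as synthesis genes that were higher in NASH diet Kupffer cells. Srebf2 (chr15:82147269-82204960, window chr15:82147019-82147268, plus strand) is shown as the regulator that was higher in Ly6C-low macrophages and in Kupffer cells at 20 and 30 weeks. Lbr (chr1:181815315-181842401, window chr1:181842402-181842651, minus strand) is shown as a synthesis gene that was lower in NASH diet Kupffer cells and at 20 and 30 weeks. Capitals mark the CCAAT box, read as CCAAT or its reverse complement ATTGG, and the core of the sterol regulatory element, TCACNCCAC.
Hmgcs1: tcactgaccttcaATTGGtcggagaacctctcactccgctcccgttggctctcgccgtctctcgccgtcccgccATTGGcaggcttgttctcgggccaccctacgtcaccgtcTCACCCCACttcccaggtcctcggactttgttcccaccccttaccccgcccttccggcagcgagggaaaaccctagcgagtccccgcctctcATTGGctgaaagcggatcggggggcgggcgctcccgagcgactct
Cyp51: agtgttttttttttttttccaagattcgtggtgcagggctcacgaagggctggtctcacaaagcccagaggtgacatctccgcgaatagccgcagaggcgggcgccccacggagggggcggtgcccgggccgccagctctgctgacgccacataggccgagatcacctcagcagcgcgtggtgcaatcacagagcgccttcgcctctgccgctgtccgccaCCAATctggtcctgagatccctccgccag
Srebf2: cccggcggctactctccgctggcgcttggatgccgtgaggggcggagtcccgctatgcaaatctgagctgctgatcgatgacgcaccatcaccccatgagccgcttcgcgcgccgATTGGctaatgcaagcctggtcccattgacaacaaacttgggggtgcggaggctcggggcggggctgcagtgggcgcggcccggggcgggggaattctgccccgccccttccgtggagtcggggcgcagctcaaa
Lbr: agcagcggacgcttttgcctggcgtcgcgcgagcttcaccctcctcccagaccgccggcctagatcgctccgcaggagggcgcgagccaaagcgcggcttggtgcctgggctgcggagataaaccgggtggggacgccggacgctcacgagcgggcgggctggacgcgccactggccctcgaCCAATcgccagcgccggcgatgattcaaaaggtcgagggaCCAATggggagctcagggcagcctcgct
The Hmgcs1 window held 3 CCAAT boxes and the only sterol regulatory element core found, with its first base at position -137 from the start. The table held promoters of 24 of the 29 members. On either strand, the core was found in 1 of these 24 and in 1.22% of the 27025 genes of the table. The CCAAT box was found in 19 of 24 members and in 37.5% of all genes, and the GC box GGGCGG, not marked here, in 20 of 24 and in 35.4%. In the Hmgcs1 window the core and the CCAAT boxes share no base. A match is a run of letters and not a measured binding site, and binding to these promoters was not measured here. Only exact matches were counted, so a window without the core can still hold a sterol regulatory element with other letters.

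In M (1000000 counts), a population set library held 12.4 to 22.7 M, a time course library 10.5 to 27.0 M, a whole liver library 5.39 to 9.94 M and an LXR set library 2.32 to 5.09 M, so small differences were hardest to detect in the LXR set. Levels within a set are given as CPM (counts per 1000000 counts, scaled between libraries with TMM). Wherever groups are said not to overlap for a gene, the share of all genes without overlap was not counted. A member was called at an adjusted p under 0.05 in edgeR's quasi-likelihood test across all genes (Benjamini-Hochberg), and every adjusted p is from that test unless another is named. Other cells also varied between groups. The summed CPM of 11 hepatocyte markers was 52.6 to 169 at week 0 and 3671 to 6190 at week 1, and it was 1.14 to 1.38 in blood monocytes, where 8 of the 11 markers were at 0. Kupffer cell markers summed to 36654 to 46375 in Control diet and 31550 to 34625 in NASH diet Kupffer cells of the population set. They summed to 19609 to 22239 in the recruited cells of the niche and to 2506 to 2570 in blood monocytes. Monocyte markers summed to 12819 to 16573 CPM in blood monocytes, 6166 to 6276 in Ly6C-high cells, 1586 to 1884 in Ly6C-low cells and 474 to 623 in the niche cells. In sorted or bulk samples, fewer cells of a type and less RNA per cell cannot be told apart.

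On the scale of TPM (transcripts per 1000000, which corrects for length, as deposited), the members differed widely from one another. Soat1, the enzyme that esterifies cholesterol in macrophages, had the highest level of the members in week 0 Kupffer cells, at 125 ± 21.2 TPM (SD, n = 3). It was at 157 ± 33.6 TPM in blood monocytes (n = 2) and at 8.23 ± 3.35 TPM in whole liver of the negative group (n = 10). Fdft1, which commits farnesyl diphosphate to squalene, followed a different order. Its level was 86.7 ± 21.6 TPM in Control diet Kupffer cells, 41.0 ± 3.38 in the recruited cells of the niche, 32.9 ± 0.487 in Ly6C-low cells, 26.9 ± 3.67 in Ly6C-high cells and 17.5 ± 1.71 in blood monocytes (n = 2 each). However, 20.9% of the Fdft1 exon bases overlap Ctsb, the cathepsin B gene, on the opposite strand. Mean Ctsb levels in the same groups, in that order, were 14244, 10562, 4623, 3002 and 1589 CPM. NASH diet Kupffer cells did not follow that order. There Fdft1 was at 54.0 and 61.0 TPM, below Control diet Kupffer cells, and mean Ctsb was higher, at 14813 CPM. The part of Ctsb reads in these Fdft1 levels was not tested. Lbr, a sterol reductase that is also an inner nuclear membrane protein, was highest in blood monocytes at 113 ± 16 TPM and was at 17.4 ± 0.460 in NASH diet Kupffer cells. Srebf2 was highest in Ly6C-low macrophages at 115 ± 4.47 TPM. The next groups, 20-week Kupffer cells at 60.9 ± 1.21 (n = 3), Ly6C-high macrophages at 55.5 ± 2.78 and the Cre-positive libraries of the LXR set at 54.5 ± 17.6 (n = 3), lay within the spread of the last of them.

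Insig2 stood at the other end. It was at 386 ± 50.9 TPM in whole liver of the negative group and at 8.3 to 24.2 TPM on average in the macrophage and monocyte groups. Hsd17b7, a reductase of the sterol C-4 pathway, was at 19.7 TPM in whole liver and at 0.608 TPM in Control diet Kupffer cells. Sc5d and Ebp, which work near the end of the pathway, were also at 87.6 and 88.6 TPM in whole liver against 7.74 and 33.8 in those Kupffer cells. Idi1 was at most 1.14 CPM in the population set and was not tested there. These levels were not tested across sets.

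**Figure D1:**
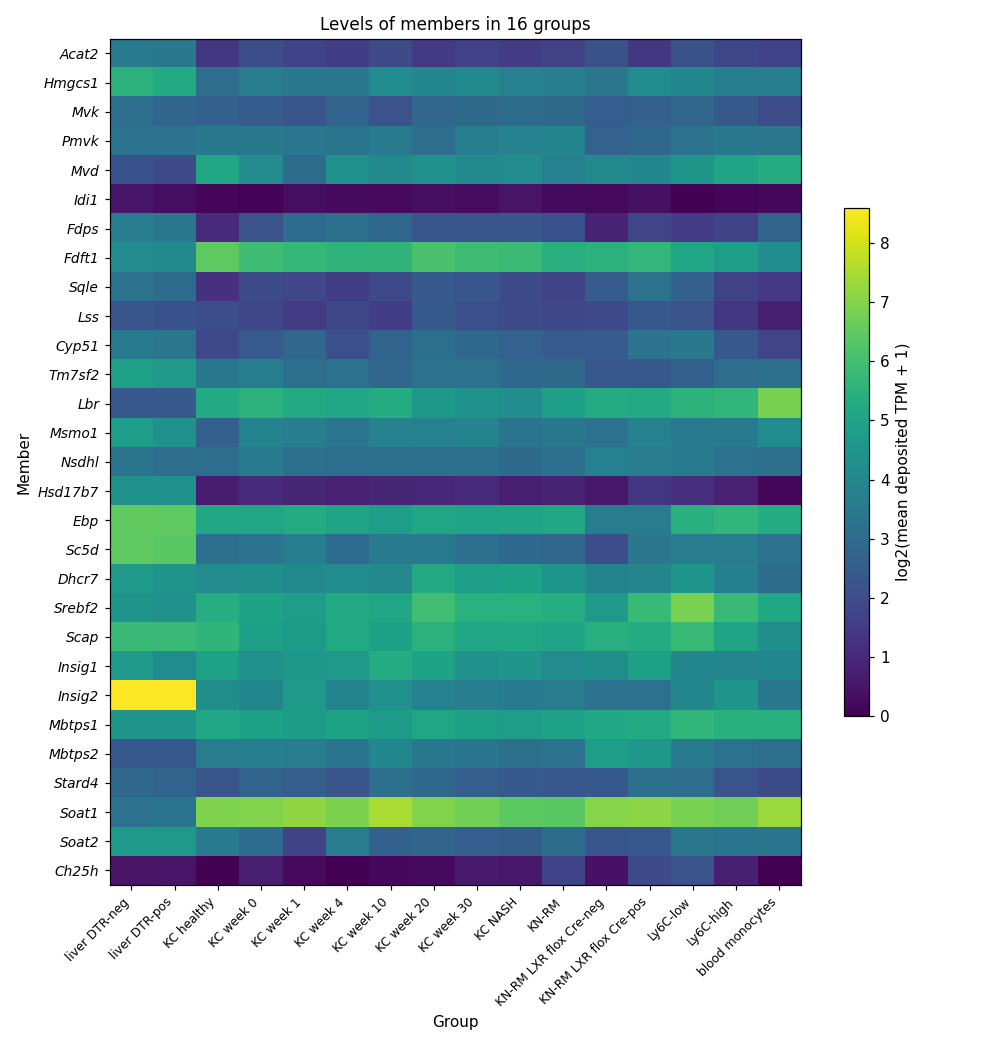
Mean deposited TPM of the 29 members (rows, grouped by role) in the 16 groups (columns), as log2(mean TPM + 1) in colour. Soat1 is high in every macrophage group and low in whole liver, whereas Insig2 is highest in both whole liver groups.

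In Kupffer cells of the population set, the NASH diet went with higher expression of several synthesis enzymes and lower expression of Mvd, Lbr and Soat2. 7 of the 28 members tested rose and 3 fell, where 11.2% of all 14407 genes tested rose and 9.56% fell. The median log2 change over the members was 0.11, against -0.00 over all genes tested. Of the 6 mevalonate members 2 rose and 1 fell, of the 3 squalene and lanosterol members 1 rose, of the 9 later enzymes 3 rose and 1 fell, and none of the 6 sterol sensing members passed the test.

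Hmgcs1, which makes the HMG-CoA that feeds the pathway, was at 22.8 and 18.3 CPM in the Control diet libraries and at 35.9 and 43.9 CPM on the NASH diet. Both NASH diet libraries lay above both controls, with a log2 change of 0.96 ± 0.15 (SE) and an adjusted p of 0.00190. Fdps, which builds farnesyl diphosphate, was at 1.58 and 0.895 CPM and at 4.24 and 5.55 CPM. It rose 3.91-fold (adjusted p = 0.00934), but 6 near-identical gene copies, pseudogenes among them, make its read counts uncertain. Sqle, the squalene oxygenase, rose from 3.60 and 2.16 CPM to 5.46 and 9.46 CPM. Its log2 change was 1.37 ± 0.39 and its adjusted p 0.0319.

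Among the enzymes after lanosterol, Cyp51, the lanosterol demethylase, was at 11.1 and 7.16 CPM in the controls and at 16.8 and 25.7 CPM on the NASH diet (log2 change 1.22 ± 0.32, adjusted p = 0.0227). Dhcr7, which makes cholesterol from 7-dehydrocholesterol, was at 31.4 and 40.8 CPM and at 59.4 and 82.9 CPM. That is a log2 change of 0.98 ± 0.23 with an adjusted p of 0.0130. The groups did not overlap for either gene. Msmo1, the C-4 methyl sterol oxidase, rose 1.93-fold (adjusted p = 0.0360).

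The members that fell belong to different steps. Lbr was at 92.2 and 111 CPM in the controls and at 54.5 and 54.9 CPM on the NASH diet, a log2 change of -0.89 ± 0.14 (adjusted p = 0.00137). Mvd, the mevalonate diphosphate decarboxylase, was at 46.6 and 50.8 CPM and at 25.8 and 29.6 CPM, with a log2 change of -0.81 ± 0.14 (adjusted p = 0.00324). Soat2, the esterifying enzyme of hepatocytes and intestine, was at 17.8 and 17.9 CPM and at 9.54 and 8.67 CPM, a 1.96-fold difference (adjusted p = 0.0247). For each of these 3 genes both NASH diet libraries lay below both controls. Ch25h was also called (adjusted p = 0.0300) on 15 counts against 1. The ratio of 16.7 has a 95% interval of 2.56 to 701, which covers counting error only, and with DESeq2 its adjusted p was 0.0509.

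Calls in this comparison depended on single libraries, and fewer of all genes were called in each of the 4 fits that left out a library. Hmgcs1, Mvd and Lbr were called in all 4 fits that left out a library. Without Control diet replicate 1, the calls of Ch25h, Dhcr7 and Soat2 ended (adjusted p = 0.0731 to 0.137) and Fdft1, Scap and Srebf2 were called. Without Control diet replicate 2, 4 members were called and 6 calls ended (Ch25h, Cyp51, Fdps, Msmo1, Soat2 and Sqle, adjusted p = 0.0530 to 0.214). Without NASH diet replicate 1 the calls of Ch25h, Msmo1 and Soat2 ended (adjusted p = 0.0794 to 0.0974), and without NASH diet replicate 2 only Hmgcs1, Mvd and Lbr were called (adjusted p of the others 0.0840 to 0.276).

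In the same cells 4 of 12 genes of fatty acid synthesis and desaturation rose and none fell. The stearoyl-CoA desaturase genes Scd2 and Scd1 rose from a mean of 149 to 434 CPM and from 278 to 778 CPM, and Fasn, the fatty acid synthase, from 74.5 to 149 CPM. Of 12 LXR receptor and cholesterol efflux genes 2 rose and 1 fell. Apoe, the apolipoprotein that carries exported cholesterol, went from 14096 to 41297 CPM (log2 change 1.55 ± 0.20, adjusted p = 0.000534). Markers of T and NK cells, summed, were at 7.89 to 9.10 CPM in the controls and at 26.6 to 43.2 CPM on the NASH diet, with 7 of 8 called higher. Of 8 sinusoidal endothelium markers 7 were called lower. The part of these cells in the members' changes was not tested.

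**Figure D2:**
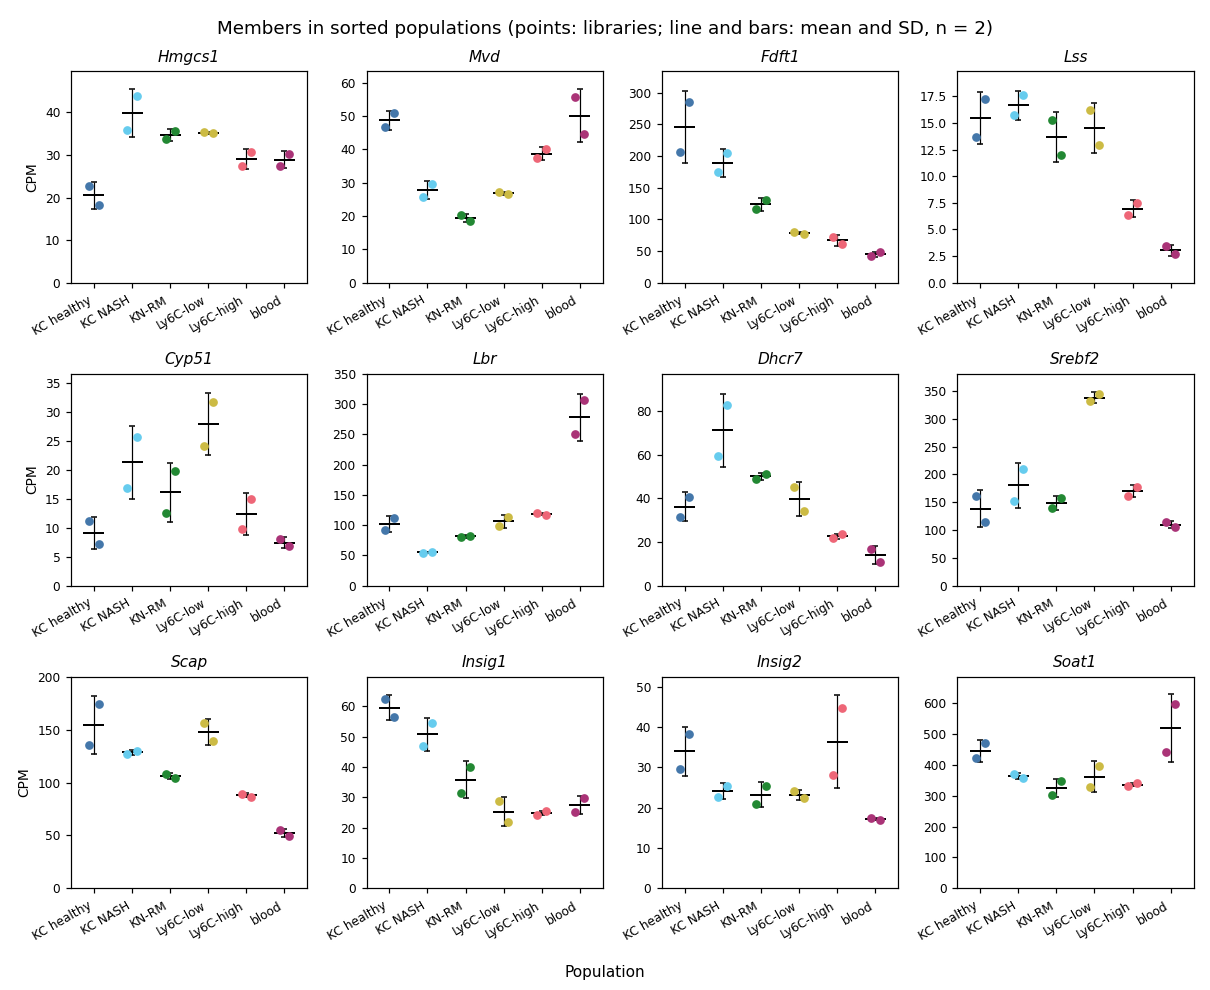
CPM of 12 members in each of the 12 libraries of the population set (points) with the mean of each group of 2 (bar). Hmgcs1, Cyp51 and Dhcr7 are higher in NASH diet than in Control diet Kupffer cells, Lbr is highest in blood monocytes, and Srebf2 is highest in Ly6C-low macrophages.

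Recruited cells that share the Kupffer niche were compared with NASH diet Kupffer cells. No member passed the test, where 0.333% of genes were called higher and 0.201% lower. 6 of 28 members had an unadjusted p under 0.05, where 1311 of all 14407 genes tested did. DESeq2 called 269 of all genes, among them 2 members, with Fdft1 lower and Lbr higher in the recruited cells. The median log2 difference over the members was -0.18 against 0.01 over all genes, with 7 positive and 21 negative values. Lbr was at 54.5 and 54.9 CPM in NASH diet Kupffer cells and at 79.9 and 82.7 CPM in the recruited cells, a log2 difference of 0.57 ± 0.14 with an adjusted p of 0.112. Fdft1 was at 174 and 205 CPM and at 116 and 131 CPM (-0.62 ± 0.16, adjusted p = 0.172). For Lbr and Fdft1 the 2 groups did not overlap, and the share of all genes without overlap was not counted. Ctsb, which overlaps exons of Fdft1, differed by -0.49 on the log2 scale (adjusted p = 0.183). The part of Ctsb reads in the Fdft1 difference was not tested. None of the genes of the other lipid lists was called here.

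Ly6C-low recruited macrophages, which lie outside the F4/80-high gate, had more Srebf2 and less Pmvk than the recruited cells of the niche. 5 of 28 members were higher and 5 lower, near the 15.3% and 18.1% of all genes. Scaled by library totals instead of TMM the split was 7 to 3, with the median of all genes moved by 0.12, and with DESeq2 it was 6 to 3. The members' median log2 difference was 0.12 against -0.01 over all genes. Srebf2 was at 139 and 157 CPM in the niche cells and at 332 and 345 CPM in the Ly6C-low cells, a log2 difference of 1.19 ± 0.18 (adjusted p = 0.000505). Pmvk, the phosphomevalonate kinase, was at 13.8 and 12.9 CPM and at 7.19 and 6.03 CPM (-1.01 ± 0.20, adjusted p = 0.00252). Both genes were called under every other setting run and in all 4 fits that left out a library.

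Lbr was higher in the Ly6C-low cells as well, by 0.38 ± 0.13 (adjusted p = 0.0465), and Mvd was 1.39-fold higher (adjusted p = 0.0260). Neither was called in any of the 4 fits without a library. Of the 6 sterol sensing members 3 were higher in the Ly6C-low cells and 1 lower. Scap was 1.39-fold higher (adjusted p = 0.0165) and Mbtps1, the site-1 protease, 1.33-fold higher (adjusted p = 0.0162), whereas Insig1 was at 31.6 and 40.1 CPM in the niche cells and at 28.7 and 22 CPM in the Ly6C-low cells, 1.41-fold lower (adjusted p = 0.0424). Fdps was at 3.09 and 5.22 CPM in the niche cells and at 1.3 and 2.16 CPM in the Ly6C-low cells (adjusted p = 0.0303). Tm7sf2, a sterol C-14 reductase, was at 8.05 and 8.36 CPM and at 5.04 and 5.27 CPM (adjusted p = 0.0268). The values of both genes did not overlap between the groups.

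Fdft1 was at 116 and 131 CPM in the niche cells and at 80.1 and 77.1 CPM in the Ly6C-low cells, a log2 difference of -0.65 ± 0.16 (adjusted p = 0.0110). 20.9% of its exon bases overlap Ctsb on the opposite strand. Ctsb encodes the lysosomal protease cathepsin B and was itself lower in the Ly6C-low cells by a log2 difference of -1.19 (adjusted p = 6.93e-05). The strand setting of the counting is not given in the sources used here, so the part of Ctsb reads in the Fdft1 values was not tested.

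With 1 library left out, fewer members and fewer of all genes were called in this comparison. Without niche replicate 1, the calls of Lbr, Mbtps1, Mvd, Scap and Tm7sf2 ended (adjusted p = 0.0619 to 0.173). Without niche replicate 2, 3 members were called, Pmvk, Srebf2 and Cyp51, and the other calls ended (0.0694 to 0.283). Insig1 and Tm7sf2 were also not called with DESeq2 (0.0652 and 0.0546) or library totals (0.106 and 0.0729), and Lbr and Tm7sf2 were not without the filter on low counts (0.0520 and 0.0515). Without Ly6C-low replicate 1 the calls of Fdps, Lbr, Mbtps1, Mvd, Scap and Tm7sf2 ended (adjusted p = 0.0509 to 0.191), and without Ly6C-low replicate 2 those of Fdft1, Insig1, Lbr, Mvd and Tm7sf2 (adjusted p = 0.0586 to 0.248). In the efflux list 7 of 12 genes were lower in the Ly6C-low cells and none higher. Apoc1, an apolipoprotein gene, went from 269 to 8.34 CPM and Apoe from 33991 to 5119 CPM. Markers of other cells differed too: 6 of 8 sinusoidal endothelium markers were higher and 1 lower in the Ly6C-low cells, with sums of 508 to 565 CPM in the niche cells and 616 to 619 CPM in the Ly6C-low cells. Of 10 Kupffer cell markers 8 were lower, and of 5 neutrophil markers tested 3 were lower. Their part in the members' differences was not tested.

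Ly6C-high cells of the liver were compared with Ly6C-high monocytes of blood on the same diet. 8 of 28 members were higher in liver and 5 lower, near the 27.3% and 21.3% of all genes. Scaled by library totals the split was 9 to 3, and with DESeq2 10 to 3. The members' median log2 difference was 0.19 against -0.01 over all genes. Of the 3 squalene and lanosterol members 2 were higher, and of the 6 sterol sensing members 3 were higher and none passed the test in the other direction.

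Lbr was at 251 and 306 CPM in blood and at 120 and 117 CPM in liver, a log2 difference of -1.23 ± 0.13 (adjusted p = 3.33e-05). Lss, the lanosterol synthase, was at 3.41 and 2.69 CPM and at 6.39 and 7.52 CPM (1.17 ± 0.24, adjusted p = 0.00207). Insig2 was at 17.4 and 17 CPM in blood and at 28.2 and 44.6 CPM in liver (1.08 ± 0.21, adjusted p = 0.00176). The groups did not overlap for any of the 3 genes, and each was called in all 4 fits without a library. Hsd17b7 was at 0.521 and 0.163 CPM in blood and at 1.83 and 2.74 CPM in liver (2.59 ± 0.51, adjusted p = 0.00174). The summed hepatocyte markers were at 1622 and 4588 CPM in the Ly6C-high liver libraries, and whole liver held 779 CPM of Insig2 and 74.3 CPM of Hsd17b7 in its negative group. The part of hepatocyte RNA in these 2 members was not tested.

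Fdps was lower in liver, at 2.21 and 2.45 CPM against 6.68 and 4.80 CPM in blood (adjusted p = 0.0174). Scap was 1.67-fold higher (adjusted p = 0.000894) and Srebf2 1.55-fold higher (adjusted p = 0.0129), while Soat1 was 1.55-fold lower (adjusted p = 0.00614). Ch25h had 20 counts in liver and 0 in blood and was at least 6.75-fold higher against a floor of 3 counts over the group (adjusted p = 0.00296). Of these 5 members Scap and Ch25h were called in every fit without a library. Without blood replicate 1 the calls of Fdft1, Fdps, Msmo1 and Mvd ended (adjusted p = 0.0554 to 0.299), and without blood replicate 2 those of Dhcr7, Msmo1, Soat1 and Srebf2 (adjusted p = 0.0546 to 0.215). Without Ly6C-high replicate 1, Dhcr7, Fdft1, Fdps, Msmo1 and Mvd were no longer called, and without replicate 2, Dhcr7, Fdps, Msmo1, Mvd and Srebf2 (adjusted p = 0.0619 to 0.179 over both fits). Msmo1 and Mvd were also not called with DESeq2 (0.0574 and 0.159) or library totals (0.0564 and 0.117), and Mvd was not without the filter (0.0728).

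The recruited cells of the niche had more Mvk, Fdft1, Lss, Hsd17b7 and Dhcr7 than blood monocytes and less Mvd and Lbr. 10 of 28 members were higher and 4 lower. The share higher was near the 34.0% of all genes, and the share lower was below their 26.5%. The median log2 difference was 0.36 over the members and 0.09 over all genes. This comparison shares its blood libraries with the one before. Lss was at 15.3 and 12 CPM in the niche cells against 3.41 and 2.69 CPM in blood (2.14 ± 0.24, adjusted p = 1.54e-05). Dhcr7 was at 49.0 and 51.2 CPM against 16.9 and 11 CPM (1.83 ± 0.24, adjusted p = 5.31e-05). Lbr was at 79.9 and 82.7 CPM against 251 and 306 CPM (-1.78 ± 0.14, adjusted p = 8.55e-07). These 3 genes did not overlap between the groups.

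Hsd17b7 was at 2.54 and 3.34 CPM in the niche cells against 0.521 and 0.163 CPM in blood (2.95 ± 0.51, adjusted p = 0.000459). The summed hepatocyte markers were at 107 to 466 CPM in those niche libraries. Fdft1 was at 116 and 131 CPM against 41.8 and 47.8 CPM (1.47 ± 0.17, adjusted p = 2.26e-05), and Ctsb was higher as well, by 2.73 on the log2 scale. Ch25h had 85 counts against 0 and was at least 28.6-fold higher (adjusted p = 9.85e-05). Mvd was 2.59-fold lower (adjusted p = 1.06e-05). Mvk, the mevalonate kinase, was 2.50-fold higher (adjusted p = 0.00199), and Scap was 2.02-fold higher (adjusted p = 5.78e-05).

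10 of the 14 calls held in each fit that left out a library. Mbtps1 and Stard4 were not called without blood replicate 1 (adjusted p = 0.0778 to 0.138), and Cyp51, Pmvk and Stard4 were not without blood replicate 2 (0.0543 to 0.0717). Mbtps1 was also lost without niche replicate 1 (adjusted p = 0.103), and Cyp51, Mbtps1 and Stard4 without niche replicate 2 (0.106 to 0.152). Mbtps1 was not called without the filter (0.0618). Of the non-sterol branch of the mevalonate pathway 1 of 10 genes was higher and 5 lower. Ggps1, which makes geranylgeranyl diphosphate, went from 35.6 to 14.7 CPM (-1.28 ± 0.21, adjusted p = 0.000276). Cell cycle markers, of which 16 of 16 were called higher, summed to 130 to 138 CPM in blood and 690 to 693 CPM in the niche cells, and their part in the members' differences was not tested.

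Within the CD11b-high gate of the liver, Ly6C-low cells had more of the regulator Srebf2, its escort Scap and several synthesis enzymes than Ly6C-high cells. 8 of 28 members were higher and 2 lower, where 11.6% of genes were higher and 14.0% lower. The members' median log2 difference was 0.26 against -0.03 over all genes. Srebf2 was at 162 and 178 CPM in Ly6C-high and at 332 and 345 CPM in Ly6C-low cells (0.99 ± 0.18, adjusted p = 0.00261). Scap was 1.68-fold higher (adjusted p = 0.00222). Both were called in all 4 fits without a library.

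Cyp51 was at 9.80 and 14.9 CPM in Ly6C-high and at 24.1 and 31.6 CPM in Ly6C-low cells (1.17 ± 0.31, adjusted p = 0.0183). Lss was at 6.39 and 7.52 CPM and at 16.2 and 12.9 CPM (1.07 ± 0.22, adjusted p = 0.00533). Sqle was at 3.98 and 4.31 CPM and at 6.54 and 11.9 CPM (1.14 ± 0.37, adjusted p = 0.0431). No library of either group reached the other for these 3 enzymes. Stard4, which carries cholesterol between membranes, was at 11.5 and 14.8 CPM and at 26.2 and 24.5 CPM (0.95 ± 0.21, adjusted p = 0.00894). Ch25h was at 0.696 and 0.524 CPM and at 4.47 and 1.90 CPM, 5.24-fold higher (adjusted p = 0.0117). Insig2 and Mvd were lower, by 1.57-fold (adjusted p = 0.0413) and 1.44-fold (adjusted p = 0.0192).

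Without Ly6C-high replicate 1 the calls of Cyp51, Dhcr7, Mvd, Sqle and Stard4 ended (adjusted p = 0.0509 to 0.146), and without replicate 2 those of Ch25h, Dhcr7, Insig2, Mvd and Sqle (0.0964 to 0.410). Without Ly6C-low replicate 1 those of Ch25h, Dhcr7, Insig2, Lss, Mvd and Stard4 ended (0.0524 to 0.183), and without replicate 2 those of Cyp51, Insig2, Mvd and Sqle (0.0766 to 0.256). All 11 hepatocyte markers were lower and 15 of 16 cell cycle markers higher in Ly6C-low cells, and their part was not tested. In the fatty acid list 4 of 12 genes were higher and 2 lower. Scd1 was among the lower ones, with 728 CPM in Ly6C-high and 147 CPM in Ly6C-low cells (adjusted p = 0.00318).

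**Figure D3:**
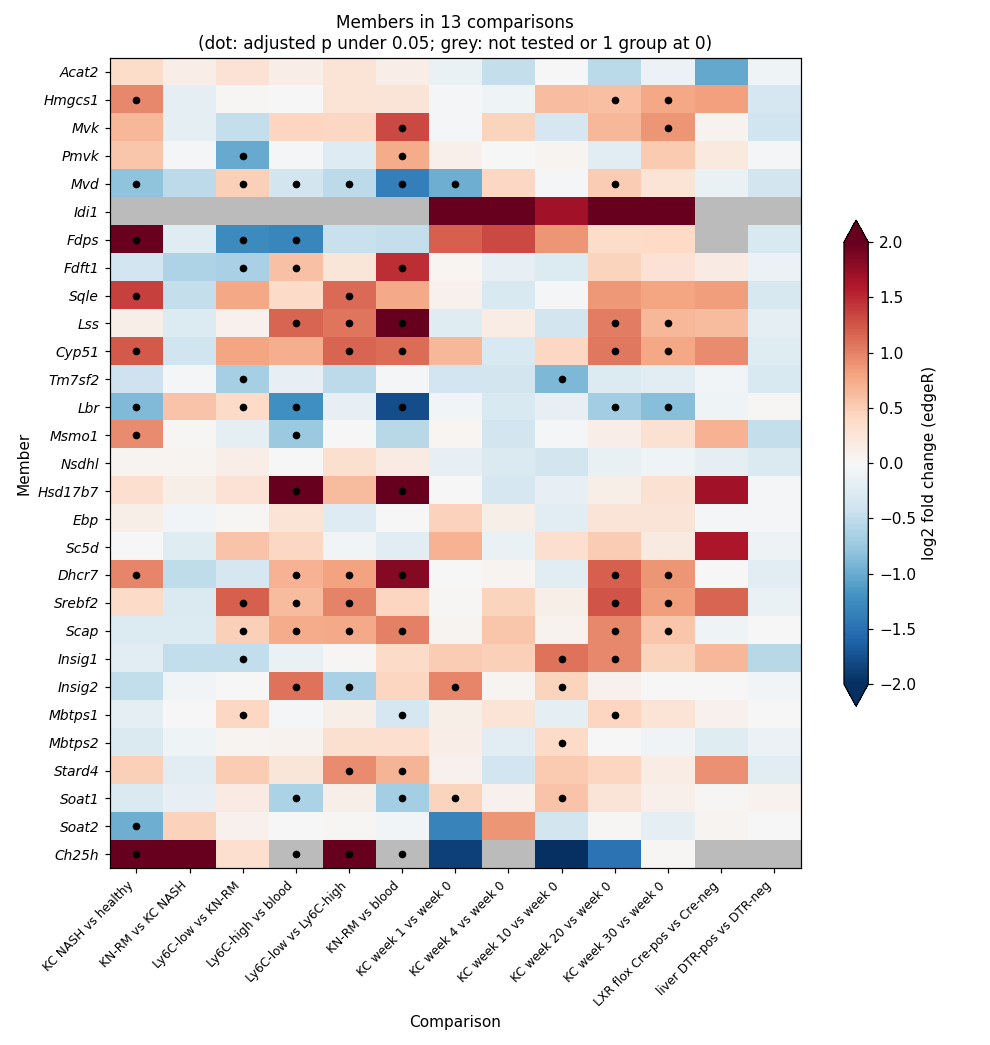
Log2 fold change of the 29 members (rows) in the 13 comparisons (columns), with colour limited to ±2, a dot for an adjusted p under 0.05 and grey for members not tested or with 1 group at 0 counts. Lbr is lower in NASH diet Kupffer cells and at 20 and 30 weeks, where Hmgcs1, Cyp51 and Dhcr7 are higher, and no dot stands in the LXR and whole liver columns.

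In the time course, Kupffer cells of 1, 4, 10, 20 and 30 weeks of NASH diet were each compared with the same 3 Control diet libraries of week 0, so these comparisons share their controls. All 29 members were tested. Fewer members were called at weeks 1, 4 and 10 than at weeks 20 and 30, and so were fewer of all genes. Members called at weeks 20 and 30 were higher, except Lbr.

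At week 1, 2 members rose and 1 fell, where 9.42% of genes rose and 6.56% fell. Insig2 was at 20.6, 23.3 and 27.3 CPM at week 0 and at 50.0 and 42.9 CPM at week 1, a log2 change of 0.97 ± 0.16 (adjusted p = 0.000501). Mvd was at 20.9, 19.7 and 21.5 CPM and at 9.76 and 11.3 CPM (-0.97 ± 0.20, adjusted p = 0.00282). Both changes were without overlap and were called in every fit without a library. Soat1 was at 441, 350 and 398 CPM and at 524 and 553 CPM (adjusted p = 0.0265), and its call ended without week 0 replicate 2, week 0 replicate 3 or either week 1 library (0.0613 to 0.151) and with library totals (0.0786). All 11 hepatocyte markers were called higher at week 1, and the part of hepatocyte RNA in the Insig2 value was not tested.

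At week 4 no member passed the test, where 5.55% of genes rose and 2.99% fell. 4 of 29 members had an unadjusted p under 0.05, where 3478 of all 14552 genes tested did. DESeq2 called 1 member, Scap, where it called 1752 of all genes. Scap was at 81.7, 71.8 and 75.4 CPM at week 0 and at 104 and 119 CPM at week 4 (0.55 ± 0.18, adjusted p = 0.0706 with edgeR). The week 4 libraries lay above those of week 0.

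At week 10, 4 members rose and 1 fell, where 11.5% of genes rose and 7.63% fell. Insig1, a short-lived brake on SCAP that is itself a target of SREBP2, was at 39.0, 22.8 and 37.3 CPM at week 0 and at 59.0, 70.8 and 79.9 CPM at week 10 (1.08 ± 0.23, adjusted p = 0.00522). Soat1 was at 441, 350 and 398 CPM and at 567, 539 and 663 CPM (0.57 ± 0.11, adjusted p = 0.00331). Tm7sf2 was at 8.94, 15.4 and 10.3 CPM and at 5.87, 4.62 and 7.99 CPM (-0.90 ± 0.23, adjusted p = 0.0124). In these 3 genes the groups did not overlap.

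Insig2 was at 31.3, 38.4 and 28.0 CPM at week 10 (adjusted p = 0.0354) and Mbtps2, the site-2 protease, was at 56.6, 43.5 and 49.9 CPM against 42.0, 34.4 and 38.1 CPM at week 0 (adjusted p = 0.0365). Insig1 and Soat1 were called in every fit without a library. Without week 0 replicate 2 the calls of Insig2, Mbtps2 and Tm7sf2 ended (0.0768 to 0.144), and without week 10 replicate 1 those of Insig2 and Mbtps2 (0.0548 to 0.143). The call of Insig2 also ended without week 0 replicate 1 or week 10 replicate 2, and that of Mbtps2 without week 0 replicate 3 or week 10 replicate 3. Neither was called with library totals (0.0573 and 0.0633) or without the filter (0.0669 and 0.0766). At week 10, 11 of 11 hepatocyte markers and 6 of 8 stellate cell markers were called higher, with sums of 693 to 3153 and 178 to 349 CPM, and their part in the week 10 values, Insig2 among them, was not tested.

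At week 20, 9 members rose and 1 fell, where 18.2% of genes rose and 16.6% fell. The members' median log2 change was 0.43, with 22 positive and 7 negative values. Of the 6 sterol sensing members 4 rose, of the 7 mevalonate members 2, of the 3 squalene and lanosterol members 1, and of the 9 later enzymes 2 rose and 1 fell. Srebf2 was at 116, 68.4 and 91.3 CPM at week 0 and at 215, 220 and 227 CPM at week 20 (1.26 ± 0.21, adjusted p = 0.000300). Dhcr7 (chr7:143823167-143848410) was at 37.3, 33.4 and 32.4 CPM and at 74.3, 76.1 and 84.9 CPM (1.19 ± 0.12, adjusted p = 4.38e-06). Every week 20 library was above every week 0 library for both genes.

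Cyp51 was at 15.4, 11.7 and 12.2 CPM at week 0 and at 22.5, 23.6 and 35.5 CPM at week 20 (1.05 ± 0.27, adjusted p = 0.00728). Lss was at 10.2, 11 and 11.3 CPM and at 19.7, 23.4 and 22.6 CPM (1.02 ± 0.18, adjusted p = 0.000614). Among the sensing members, Scap was at 132, 188 and 124 CPM at week 20 (0.96 ± 0.16, adjusted p = 0.000358) and Insig1 at 53.2, 76.1 and 63.8 CPM (0.96 ± 0.23, adjusted p = 0.00496). All 4 genes were without overlap between weeks 0 and 20. Lbr fell from 108, 101 and 108 CPM to 69.9, 72.1 and 52.7 CPM (-0.70 ± 0.13, adjusted p = 0.000690).

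These 7 calls held in every fit without a library. Hmgcs1, at 27.5 CPM on average at week 0 and 41.8 CPM at week 20, was called at an adjusted p of 0.0420, but its groups overlapped and its call ended in 4 of 6 such fits (up to 0.202). Mvd rose 1.42-fold (adjusted p = 0.0269), and its call ended in 5 of 6 (up to 0.108). Mbtps1 rose 1.35-fold (adjusted p = 0.0140), with an adjusted p of 0.0521 without week 20 replicate 2. Scaled by library totals, which moved the median of all genes by -0.22, these 3 were no longer called (0.171 to 0.190).

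At week 30, 7 members rose and 1 fell, where 15.5% of genes rose and 15.0% fell. The median log2 change was 0.29, with 23 positive and 6 negative values. Dhcr7 was at 61.6, 65.0, 67.8 and 61.1 CPM (0.89 ± 0.12, adjusted p = 3.37e-05) and Srebf2 at 152, 169, 179 and 153 CPM (0.83 ± 0.20, adjusted p = 0.00467). Hmgcs1 was at 32.2, 23.1 and 27.2 CPM at week 0 and at 53.4, 39.6, 51.3 and 44.5 CPM at week 30 (0.78 ± 0.21, adjusted p = 0.00893). Lbr was at 52.5, 58.3, 69.2 and 54.2 CPM (-0.85 ± 0.12, adjusted p = 6.80e-05). These 4 members were apart from week 0 in every library and were called in every fit without a library.

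Mvk was at 5.33, 6.44 and 4.22 CPM at week 0 and at 10.5, 11.1, 9.77 and 7.80 CPM at week 30 (0.88 ± 0.25, adjusted p = 0.0155), and its call ended without week 0 replicate 3 (0.0783). Cyp51 was at 24.3, 16.4, 27.9 and 21.0 CPM at week 30 (0.77 ± 0.25, adjusted p = 0.0311). Its call ended without week 0 replicate 2, week 0 replicate 3, week 30 replicate 1 or week 30 replicate 3 (0.0640 to 0.101) and with library totals (0.0875). Lss and Scap rose 1.58-fold (adjusted p = 0.00921) and 1.47-fold (adjusted p = 0.0116), and both were called in every such fit. Mvd, lower in the NASH diet Kupffer cells of the population set, was at 24.3, 25.6, 24.8 and 25.1 CPM at week 30, above each week 0 library, without a call.

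Weeks 20 and 30 were also compared directly with other weeks, comparisons chosen after the data were seen. Against week 4, 5 members were higher at week 20 and none lower, where 8.35% of genes were higher and 8.40% lower. They were Dhcr7 (log2 difference 1.13, adjusted p = 8.59e-05), Cyp51 (1.35, 0.00886), Lss (0.87, 0.0107), Srebf2 (0.81, 0.0273) and Fdft1 (0.63, 0.0466). Dhcr7 was called in every fit without a library. Without week 4 replicate 1, no other of the 5 was called (0.0872 to 0.158), and without week 4 replicate 2, Cyp51, Fdft1 and Srebf2 were not (0.0534 to 0.25). Without week 20 replicate 1, 3 members were called, with Fdft1 and Srebf2 lost (0.0535 to 0.0647). Fdft1 was also lost without week 20 replicate 2 (0.152) and with library totals (0.0670), and Srebf2 without week 20 replicate 3 (0.0518), so each of these 2 was called in 1 of 5 such fits.

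Against week 10, 10 members were higher at week 20 and 3 lower, where 20.4% of genes were higher and 20.7% lower. Dhcr7 was higher by 1.41 ± 0.12 (adjusted p = 1.40e-06) and Lss by 1.39 ± 0.19 (adjusted p = 4.10e-05), and Srebf2 was 2.21-fold higher (adjusted p = 0.000474). Scap, Mvk, Fdft1, Tm7sf2, Mbtps1, Mvd and Ebp were higher too, and Lbr, Mbtps2 and Soat1 were lower. Of these, Ebp, Mvd and Tm7sf2 were not called with library totals (0.113, 0.0716 and 0.111), and Soat1 and Tm7sf2 were not without the filter (0.0784 and 0.0541). Of the 6 fits without a library, Tm7sf2 was called in 1 (up to 0.142), being kept only without week 10 replicate 3. Mbtps2 was called in 3 and was lost without week 10 replicate 1, week 20 replicate 2 or week 20 replicate 3 (up to 0.0783). Soat1 was called in 3 and was lost without week 10 replicate 3, week 20 replicate 1 or week 20 replicate 3 (up to 0.156). Mvd was called in 4 and was lost without replicate 2 of either week (up to 0.0686). The other 9 were called in all 6. Ctsb, which overlaps exons of Fdft1, was at 12120 CPM on average at week 4, 10851 at week 10 and 15005 at week 20. The part of Ctsb reads in the Fdft1 differences between these weeks was not tested. Between weeks 30 and 20 no member was called, where 0.00% of genes were higher and 0.00% lower. 6 members had an unadjusted p under 0.05, and the number of all genes at that threshold is not given here. DESeq2 called 0 members, and the members' median log2 difference was -0.15.

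**Figure D4:**
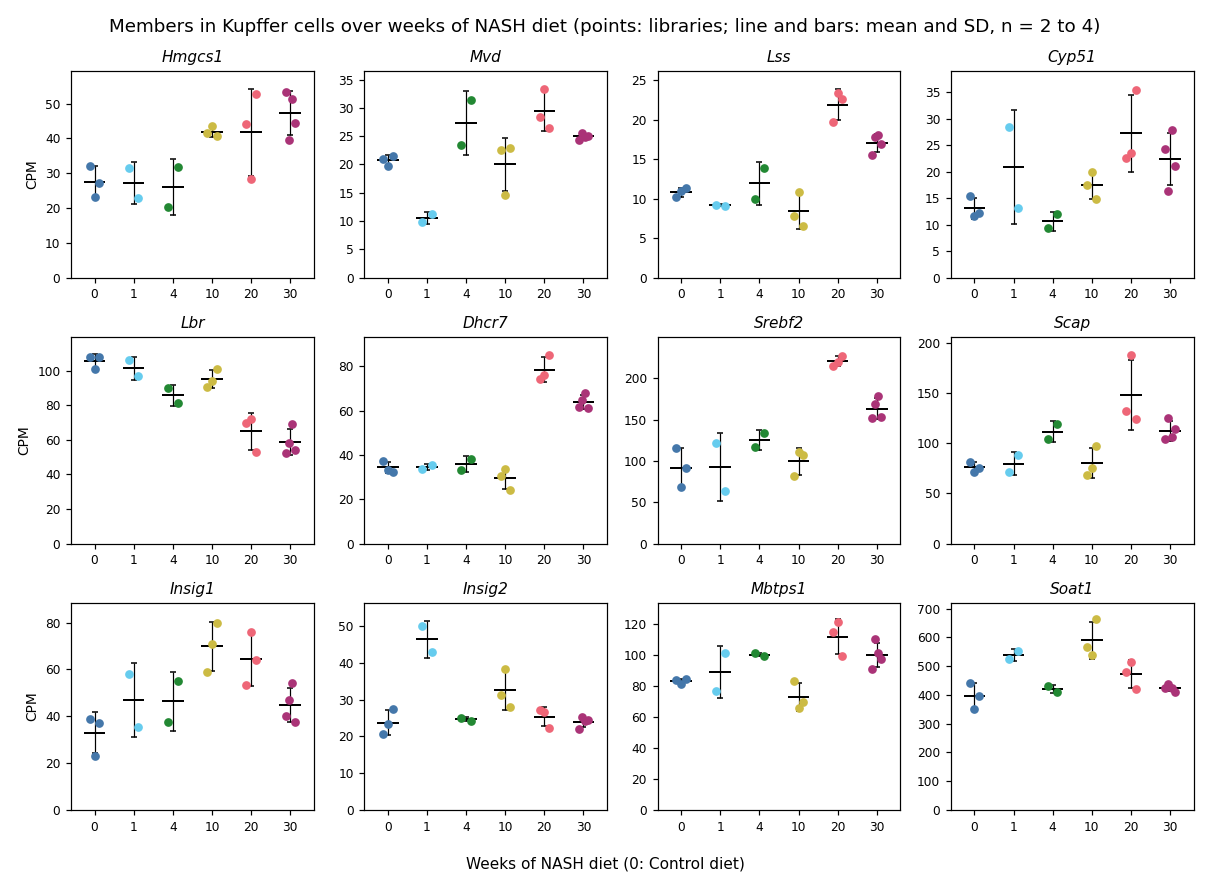
CPM of 12 members in each of the 17 Kupffer cell libraries (points) by weeks of NASH diet, with the mean of each week (bar). Srebf2 and Dhcr7 are higher in every library of weeks 20 and 30 than in any of week 0, Lbr is lower, and Soat1 is highest at week 10.

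Other lipid genes changed in the time course as well. Of 12 fatty acid genes 5 rose at week 1, 3 at week 4, 3 at week 10, 5 at week 20 and 3 at week 30, and none fell. Scd1 went from 240 to 768 CPM at week 20 and 852 CPM at week 30. Srebf1, which encodes the SREBP of fatty acid synthesis, went from 107 to 249 and 229 CPM. Of 12 LXR receptor and efflux genes 5 rose at week 1, 5 at week 4, 4 at week 10, 8 at week 20 and 8 at week 30, with 1 lower at week 20. Abca1, the exporter of cellular cholesterol, went from 601 to 1528 CPM at week 20 (1.35 ± 0.19). Of the 10 non-sterol branch genes 2 fell at week 20 and none rose, and Ggps1 went from 28.4 to 13.4 CPM (-1.08 ± 0.16, adjusted p = 0.000146).

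Other cells moved with these weeks. 7 of 11 hepatocyte markers were called higher at weeks 20 and 30, with sums of 176 to 953 and 279 to 1042 CPM. Of 8 stellate cell markers 6 were higher at week 20 and 7 at week 30, with sums of 29.4 to 60.5 CPM at week 0, 88.7 to 299 at week 20 and 121 to 363 at week 30. Of 8 sinusoidal endothelium markers 5 were lower at week 20 and 6 at week 30, with sums of 1145 to 2251 CPM at week 0, 917 to 1653 at week 20 and 646 to 997 at week 30. Of 10 Kupffer cell markers 7 were lower at week 20 and 5 at week 30. The part of hepatocytes, stellate cells and endothelium in the members' changes was not tested.

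In the LXR set, the floxed genes themselves were read first. Nr1h3 was at 247, 282 and 307 CPM in the libraries labelled Cre-negative and at 187, 451 and 298 CPM in those labelled Cre-positive (0.17 ± 0.28, adjusted p = 0.949). Nr1h2 was at 51.1, 33.3 and 36.6 CPM and at 61.1, 82.5 and 64.5 CPM (0.79 ± 0.24, adjusted p = 0.261). Neither was lower in the libraries labelled Cre-positive. The counts cover whole transcripts and can include reads outside the deleted part, so these levels check neither the deletion nor the labels. Each direction given for this set refers to the labels.

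26 of the 29 members were tested and no member was called, where 0.174% of genes were higher and 0.0348% lower. 5 had an unadjusted p under 0.05, where 947 of all 11480 genes tested did. DESeq2 called 1 member, Srebf2, where it called 232 of all genes. Srebf2 was at 72.2, 52.8 and 51.7 CPM in the libraries labelled Cre-negative and at 78.7, 172 and 144 CPM in those labelled Cre-positive (1.17 ± 0.28, adjusted p = 0.152). Without Cre-positive replicate 1, edgeR called it too. Stard4 was at 13, 12.4 and 10.2 CPM and at 18.4, 25.4 and 23.1 CPM (0.92 ± 0.28, adjusted p = 0.281). Hmgcs1 was at 20.4, 18.3 and 15.6 CPM and at 30.3, 38.2 and 27.4 CPM (0.82 ± 0.26, adjusted p = 0.290). The 2 labels did not overlap for any of these 3 genes. How many of all genes were without overlap in this set was not counted, so no share stands beside these members.

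Among the enzymes after lanosterol, Sc5d was at 2.47, 4.28 and 4.31 CPM and at 8.20, 16.6 and 9.14 CPM (1.61 ± 0.46, adjusted p = 0.239), and Cyp51 was at 8.46, 7.85 and 14.8 CPM and at 17.6, 23.6 and 18.5 CPM (0.94 ± 0.34, adjusted p = 0.413). Here too the labels did not overlap. Acat2, which joins acetyl-CoA units, was without overlap in the other direction, at 3.88, 3.57 and 3.77 CPM and at 0.820, 1.80 and 2.65 CPM, without a call. The median log2 difference over the members was 0.07 against -0.01 over all genes, with 18 positive and 8 negative values. Of the 11 fatty acid genes tested 1 was higher, Acsl3, which activates long-chain fatty acids, with 5.20 CPM against 24.4 CPM (2.23 ± 0.32, adjusted p = 0.0266). Of the 10 LXR receptor and efflux genes tested none was called and 5 had an unadjusted p under 0.05, with a median log2 difference of 0.80. Their summed level was 4012 to 4599 CPM in the libraries labelled Cre-negative and 4910 to 7448 CPM in those labelled Cre-positive. Monocyte markers summed to 187 to 335 CPM in the libraries labelled Cre-negative and to 398 to 471 CPM in those labelled Cre-positive, and their part in the members' values was not tested.

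**Figure D5:**
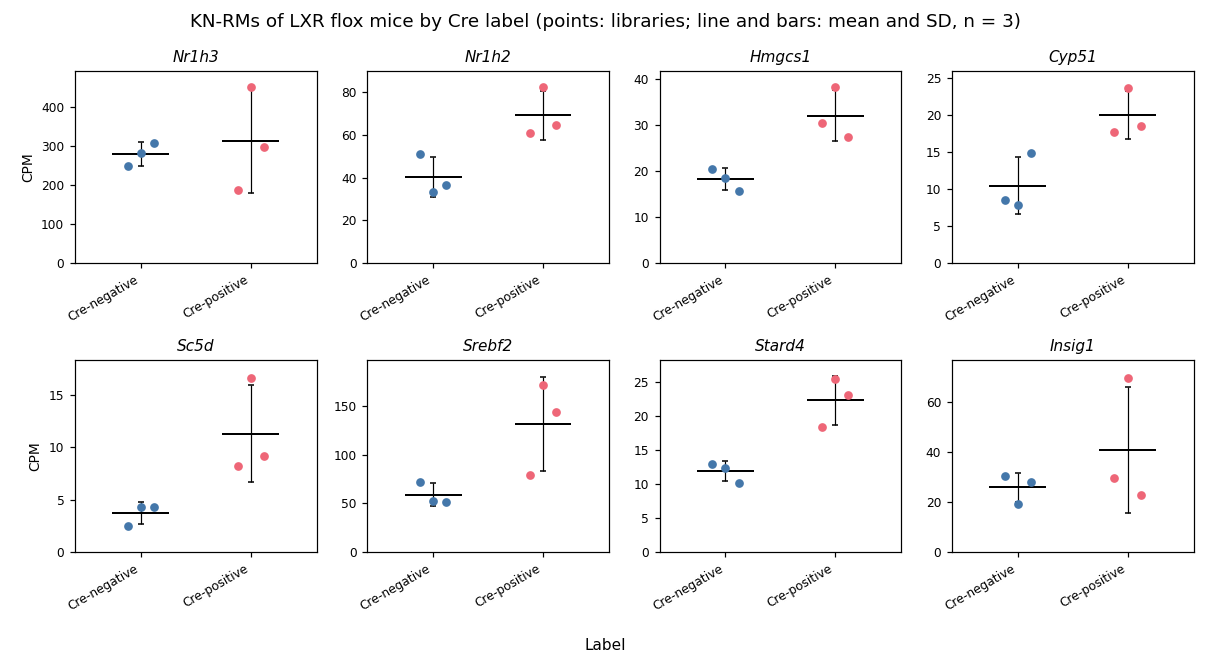
CPM of Nr1h3, Nr1h2 and 6 members in the 3 libraries labelled Cre-negative and the 3 labelled Cre-positive (points), with means (bars). Hmgcs1, Cyp51, Sc5d, Srebf2 and Stard4 do not overlap between the labels, and none of these members passed the test across all genes with edgeR. The share of all genes without overlap was not counted.

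In whole liver, Clec4f, the Kupffer cell gene whose promoter drives the recombinase, was at 46.6 CPM on average in the negative group and at 50.6 CPM in the positive group (0.13 ± 0.61, adjusted p = 1.00). 27 members were tested and none was called, where 0.00% of genes were higher and 0.00% lower. 4 members had an unadjusted p under 0.05, where 477 of all 12682 genes tested did, and DESeq2 called 0 members. The median log2 difference over the members was -0.14 against 0.00 over all genes, and 24 of 27 values were negative.

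Insig1 had its lowest, median and highest values at 25.6, 42.1 and 102 CPM in the negative group and at 19.6, 31.1 and 62.5 CPM in the positive group (-0.56 ± 0.22). Dhcr7 ran from 48.6 over 52.7 to 70.2 CPM and from 33.3 over 47.5 to 60.1 CPM (-0.22 ± 0.09). Mvk ran from 7.12 over 10.9 to 16.1 CPM and from 4.37 over 8.88 to 12 CPM (-0.40 ± 0.17). Tm7sf2 ran from 24.2 over 35.2 to 46.3 CPM and from 19.5 over 29.8 to 34.5 CPM (-0.31 ± 0.14). All 4 had an adjusted p of 1.00, and the groups overlapped for each. Hmgcs1, with medians of 120 and 106 CPM, and Insig2, with 770 and 710 CPM, overlapped over most of their range.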

How the data were processed

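Polyadenylated RNA was sequenced from 57 mouse libraries of 16 groups. Per the labels' protocols, liver cells were released by retrograde perfusion with Liberase in the presence of flavopiridol, enriched on density gradients and sorted by flow cytometry. The authors deposited raw counts and TPM for 40458 RefSeq transcripts of mm10, made with HOMER from reads in exons, per the file headers. STAR, HOMER and DESeq2 are named in the submitters' processing notes without versions, and the strand setting is not given in the sources used here. For each of 24941 symbols only its most highly counted transcript was used (7630 symbols had more than 1), so reads of shared exons count for 1 isoform. For Mvd this was a transcript that RefSeq lists as non-coding, and its second transcript had 96.7% of that count. Near-identical copies leave Fdps, Idi1, Acat2 and Fdft1 uncertain. Besides Fdft1, exons of other genes on the opposite strand overlap 18.6% of the exon bases of Scap, 16.1% of Hmgcs1, 12.5% of Lbr and 11.5% of Ch25h. On the same strand Gm43738 overlaps 81.3% of those of Fdps. The part of these genes in the members' counts was not tested.

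Each set was fitted alone on the deposited counts with edgeR's quasi-likelihood functions glmQLFit and glmQLFTest (4.0.16, R 4.3.3) after TMM scaling and filterByExpr, whose count minimum was 10 and total minimum 15, two-sided, in 13 comparisons, adjusted over 14407, 14552, 11480 or 12682 genes in the population set, time course, LXR set and whole liver. 28, 29, 26 and 27 members passed the filter. Idi1 failed it in the population set, Idi1, Fdps and Ch25h in the LXR set, and Idi1 and Ch25h in whole liver. The filter also keeps genes that are high in 1 group only. Total counts were 2.32 to 27.0 M (1000000 counts) per library and limit the precision of low genes. DESeq2 1.42.0, library total scaling, no filter, a replicate block and each library left out were the alternatives. The tests were also run on simulated data. Chi-square per degree of freedom between replicates was 5.03 to 79.9 over 140 pairs, so none was a duplicate. Labels do not say that replicates are separate animals, so the p-values reflect only how far these samples vary, which may be technical.

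Members and gene lists were chosen with earlier results of these data known. Any member could be named in its role group. Values in every library are given for the 6 called members with the largest absolute log2 change in a comparison, for uncalled members when their role is described, and for Hmgcs1, Mvd, Lbr and Scap where they were singled out after their values were seen. Of every other list at most 3 called genes per comparison were named. The floor for a group with 0 counts was 3 counts, and ratio intervals are exact at 95%.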

Additional observations from a re-analysis of the deposited data

Results flagged for a closer look

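Among the 29 members at week 30, 2 had a library far from the other 3 by Dixon's test. Ebp was at 51.8 CPM in replicate 2, with the nearest library at 43.3 CPM, and Ch25h was at 1.46 CPM in replicate 4, with the nearest at 0.388 CPM. Chance flags about 1 in 20 groups. In the negative group of whole liver 0 of 29 members were flagged.

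The change from week 0 differed between diet times by a direct edgeR test of the weeks, chosen after the data were seen. From week 4 to week 20 the log2 difference was 1.35 for Cyp51, 1.13 for Dhcr7, 0.87 for Lss, 0.81 for Srebf2 and 0.63 for Fdft1. From week 10 to week 20 it was 1.41 for Dhcr7, 1.39 for Lss, 1.14 for Srebf2, 1.00 for Mvk, 0.88 for Scap, 0.73 for Fdft1, 0.63 for Tm7sf2, 0.62 for Mbtps1, 0.55 for Mvd and 0.48 for Ebp. It was -0.55 for Lbr, -0.40 for Mbtps2 and -0.32 for Soat1. The adjusted p-values ran from 1.40e-06 (Dhcr7) to 0.0466 (Fdft1 from week 4).

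The 2 sets of Kupffer cells moved in opposite directions for 7 members, with every NASH diet library on one side of its Control diet libraries in one set and on the other side in the other. Only pairs with a call in at least 1 of the sets were read. The difference between the sets was not tested, and how many of all genes moved in this way was not counted. Mvd differed by -0.81 in the population set and by 0.41, 0.51 and 0.27 at weeks 4, 20 and 30, but at week 1 it differed by -0.97, the direction of the population set. Scap differed by -0.27 against 0.96 at week 20 and 0.55 at week 30, and Insig1 by -0.23 against 1.08 at week 10 and 0.96 at week 20. Insig2 differed by -0.49 against 0.97 at week 1 and 0.45 at week 10. At both of these weeks 11 of 11 hepatocyte markers were called higher, and their part in the Insig2 values was not tested. Mbtps1 differed by -0.18 against 0.43 at week 20, Mbtps2 by -0.29 against 0.39 at week 10, and Soat1 by -0.29 against 0.44 at week 1 and 0.57 at week 10. Of these values in the population set, that of Mvd passed the test.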

How the results depend on the processing

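No called member changed direction under any alternative run. Over all called members and both added direct contrasts with calls, the call held in 96 and ended in 5 cases with DESeq2, 86 and 15 with library totals, 93 and 8 without the filter, and 350 and 142 with 1 library left out. The count of called members moved as follows, and the cause was not tested. Niche recruited cells against NASH diet Kupffer cells went from 0 to 2 with DESeq2, 1 with library totals and 2 without the filter. All genes called there went from 77 to 269, 100 and 257. Week 1 went from 3 to 5 with DESeq2, week 4 from 0 to 1 with DESeq2, and week 10 from 5 to 3 with library totals and 3 without the filter. In the same order, all genes called went from 2325 to 2880, from 1243 to 1752, and from 2786 to 2900 and 2549. The LXR set went from 0 to 1 with DESeq2 and 1 without the filter, where all genes called went from 24 to 232 and 273. With 1 library left out, the counts were 3 to 10 for NASH diet against Control diet Kupffer cells, 3 to 5 for Ly6C-low against niche cells, 8 to 10 for Ly6C-high cells against blood, 4 to 6 for Ly6C-low against Ly6C-high cells, 2 to 5 at week 10, 0 to 1 in the LXR set and 1 to 6 for week 20 against week 4. In the comparisons of the population set, every fit with 1 library left out also called fewer of all genes. A group left with 1 library is assumed to vary like the other groups. In whole liver libraries were not left out. The labels do not say that replicate numbers pair samples, and they were not treated as pairs. Same-numbered deviations correlated at 0.49 for niche cells against NASH diet Kupffer cells. The values were 0.44 for Ly6C-low against niche cells and 0.35 for Ly6C-low against Ly6C-high cells. In the other population set comparisons they were -0.07 to 0.11. Whether samples of this set are paired cannot be decided from groups of 2. Over all comparisons, same-numbered deviations correlated at -0.39 to 0.78. The share that correlated best with their own number was 2 of 3 at week 10, 0 of 3 at week 20, 2 of 3 at week 30, 1 of 3 in the LXR set and 2 of 10 in whole liver. With the replicate block 90 calls held and 11 ended (adjusted p = 0.0506 to 0.0693: Mvd in Ly6C-high cells against blood, Soat1 at week 1, Insig2 and Mbtps2 at week 10, Hmgcs1 and Mvd at week 20, Cyp51 at week 30, Fdft1 and Srebf2 at week 20 against 4, Soat1 and Tm7sf2 at week 20 against 10), and the count moved from 5 to 3 at week 10 and from 5 to 3 for week 20 against week 4. Depth limits the LXR set most, at 2.32 to 5.09 M counts (M for 1000000).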

Other observations

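Genes of lysosomal cholesterol release and sterol transport, 13 in all, changed in both directions. 6 were higher and 3 lower in the recruited cells of the niche than in blood monocytes, and 5 rose and 2 fell at week 30. Nceh1, which hydrolyses cholesterol esters, went from 134 CPM at week 0 to 299 CPM at week 20 (1.16 ± 0.15), and Gramd1c, a sterol transfer protein gene, from 12.4 to 2.56 CPM (-2.26 ± 0.27). Of the 8 genes of sterol-regulated protein degradation, 3 were higher and 2 lower in the niche cells than in blood, near the 34.0% and 26.5% of all genes, and 2 rose and 1 fell at week 30, near the 15.5% and 15.0% of all genes. Of the 6 oxysterol and bile acid genes, 3 rose at each of weeks 1, 4 and 10, 0 were called at weeks 20 and 30, and all 6 were lower in Ly6C-low than in Ly6C-high liver cells. Hepatocyte markers were called higher for 11 of 11 genes at weeks 1, 4 and 10 and for 7 of 11 at weeks 20 and 30, and all 11 were lower in Ly6C-low than in Ly6C-high cells. Their part in that list was not tested. In the fatty acid list 9 of 12 genes were higher and 2 lower in the niche cells than in blood, and Scd1 went from 3.74 to 439 CPM.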
